A study of Mus musculus with 2 samples.

Results

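The mitochondrial chromosome of the mouse is a small circular genome that cells carry in many copies and transcribe almost end to end. The long transcripts are cut into messenger RNAs, ribosomal RNAs and transfer RNAs, mostly at the tRNAs that lie between the other genes. Its proteins are core subunits of the respiratory chain and of the ATP synthase, and all other subunits are made from nuclear genes. Neutrophils are known for relying largely on glycolysis, while monocytes and macrophages make more use of mitochondrial respiration. All rows placed on the chromosome named MT in the deposited gene table were taken as members. There were 37 members among 55401 rows, of which 13 are protein genes, 2 are rRNA genes and 22 are tRNA genes. All 37 had the same start, end and strand in GENCODE M21, which uses the same build (mm10). Of the 37, 34 had a mean of 1 FPKM or more (fragments per kilobase of gene, scaled to the depth of the library). The 3 below that minimum were the tRNA rows mt-Tf, mt-Tv and mt-Ts2.

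The study compared MDSCs (myeloid-derived suppressor cells, immature neutrophil-like and monocyte-like cells that restrain T cells) from C57BL/6 mice of 2 genotypes aged 8 weeks, with 1 library each. The control genotype was Mettl3fl/fl, without Cre. The other was LysM-cre, Mettl3fl/fl, in which Cre is driven from the lysozyme 2 locus of myeloid cells and the same floxed alleles encode the catalytic subunit of the m6A RNA methyltransferase. Cells were isolated with magnetic beads from mice carrying tumours of the colon adenocarcinoma line MC38 and then cultured with MC38 cells for 24 h. One field of the second sample names MC39. The number of mice behind each library is not given in the labels.

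The floxed control library held 59506878 counts and the LysM-cre-labelled library 59393864. Mettl3 itself stood at 1413 and 1333 counts, and its ratio in CPM (counts divided by the library total, on a common scale) was 0.945 with an exact 95% interval of 0.876 to 1.02. Over its whole row the targeted gene was therefore not lower beyond counting error. Counts are given per gene row, so loss of the floxed part alone could not be read from them. Directions are given for the LysM-cre-labelled library, not for loss of Mettl3. Lyz2, the gene into which the Cre sequence is inserted, stood at 5400 FPKM in the floxed control against 3006 in the other. With 1 library per genotype no test between genotypes is possible. Every interval given is an exact (Clopper-Pearson) 95% interval that covers counting error only, so it compares the libraries and not the genotypes. Myeloid identity was present in both libraries, with all 8 listed MDSC and neutrophil markers above the 1 FPKM minimum. S100a8, an alarmin subunit of neutrophils, stood at 1928 FPKM in the floxed control against 1578 in the other library. Immunoglobulin rows took 3.38% of counts in the floxed control against 2.97% in the other library, so RNA of B lineage cells was present too. In such whole-library RNA, fewer cells of a type and less RNA per cell cannot be told apart.

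A stretch of nuclear DNA on chromosome 1 carries a copy of part of the mitochondrial chromosome, and its rows have to be read together with the members. Transcript sequences in GENCODE M21 showed 7 chromosome 1 rows with counts between positions 24611535 and 24616197 (minus strand, mm10), all annotated as unprocessed pseudogenes. They are copies of mt-Co1 (its last 483 bases), mt-Co2, mt-Atp6, mt-Co3, mt-Nd3, mt-Nd4l and mt-Nd4 (its first 876 bases). In 5 of the 7 the aligned bases were 100% identical, over 681 bases for mt-Co2 and its copy Gm28661 and over 783 for mt-Co3 and Gm28437. The sum of the mitochondrial and the chromosome 1 position was 24622578 for 5 rows and 24622577 for the copies of mt-Nd4l and mt-Nd4, so both stretches run in the same order in opposite orientation. The opening bases of mt-Co2 (MT, 7013 to 7072) and of Gm28661 (chromosome 1, 24615506 to 24615565, minus strand) are shown because no letter separates them.
mt-Co2: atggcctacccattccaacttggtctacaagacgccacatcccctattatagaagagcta
Gm28661: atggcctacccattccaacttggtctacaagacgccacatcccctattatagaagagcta
The next pairs show where a difference does exist, with the differing letters in capitals. The copy of mt-Nd3 differs from it by T3C, counted from the first base of mt-Nd3 (MT, 9459 to 9491, against chromosome 1, 24613087 to 24613119).
mt-Nd3: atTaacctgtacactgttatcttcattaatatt
Gm28438: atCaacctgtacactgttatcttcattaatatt
At the edge of the copied stretch, 6 letters differ between mt-Co1 (MT, 6381 to 6423) and Gm29216 (chromosome 1, 24616155 to 24616197). The last of them is A1066T, counted from the first base of mt-Co1, and the 479 bases after it are identical.
mt-Co1: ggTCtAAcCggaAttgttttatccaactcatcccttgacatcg
Gm29216: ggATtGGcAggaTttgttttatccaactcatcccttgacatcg
A fragment of 300 bases, the average insert per the labels' protocols, that lies inside such an identical run carries no letter that places it on either chromosome.

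Neighbouring members also share bases with each other. The rows of mt-Atp8 and mt-Atp6, both subunits of the ATP synthase, overlap by 43 bases on the same strand. The whole mt-Atp8 row (MT, 7766 to 7969, 204 bases, plus strand) is shown with the shared bases in capitals.
mt-Atp8: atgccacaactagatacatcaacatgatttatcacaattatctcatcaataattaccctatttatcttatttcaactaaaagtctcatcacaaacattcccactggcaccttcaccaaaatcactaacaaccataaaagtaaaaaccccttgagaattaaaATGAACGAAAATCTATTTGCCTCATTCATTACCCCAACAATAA
The row of mt-Nd4l shares its last 7 bases with mt-Nd4 in the same way (MT, 10134 to 10173).
mt-Nd4l: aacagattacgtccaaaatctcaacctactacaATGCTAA
On opposite strands, mt-Nd5 and mt-Nd6 overlap by 14 bases. Neither the strand setting nor the treatment of shared bases is stated in the sources used here. The rows of mt-Co3, mt-Nd4 and mt-Cytb end 1 base into a stop codon that only a poly(A) tail completes, as the last bases of mt-Co3 (MT, 9351 to 9390) show with that base in capitals.
mt-Co3: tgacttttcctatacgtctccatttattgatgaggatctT
The other 10 protein rows end in a complete stop codon. In mt-Nd1 and mt-Nd2, the last 2 bases of it also belong to the tRNA rows mt-Ti and mt-Tw on the same strand. Libraries were made from RNA selected on oligo(dT) beads, which capture poly(A) tails.

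Mitochondrial rows together took a slightly larger share of counts in the LysM-cre-labelled library. They held 2.14% of counts in the floxed control (1276269) against 2.43% in the LysM-cre-labelled library (1444698), a CPM ratio of 1.13 (95% interval 1.131 to 1.137). With the rows of their nuclear copies added, the shares were 2.81% and 2.90% and the ratio was 1.03 (1.027 to 1.031). The excess as deposited was thus much smaller once rows of like sequence were counted together. Protein genes made up nearly all of the mitochondrial share, at 2.05% and 2.31% of counts. The rRNA rows held 0.0963% and 0.123%, and the tRNA rows 0.00325% and 0.00310%.

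No protein gene differed 2-fold. In FPKM + 1, 0 of 13 were at least 2-fold higher or lower, where 2.49% of the 12526 genes kept passed that fold in either direction. At 1.2-fold in CPM, 4 of 13 protein genes were higher and 0 lower, against 14.2% and 13.1% of all genes kept. Deeply counted genes passed it less often, at 4.94% higher and 6.21% lower among 2672 genes with a mean of 5000 counts or more. The CPM ratio lay above 1 for 9 of 13 protein genes, against 50.2% of genes kept, and the whole interval lay above 1 for 8 of 13, against 30.1%. The median log2 CPM ratio of the 13 was 0.13, beside 0.00081 over all genes kept. With the nuclear copy rows added, the median was 0.0049, and the interval lay above 1 for 6 genes, below 1 for 5 and across 1 for 2.

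**Figure D1:**
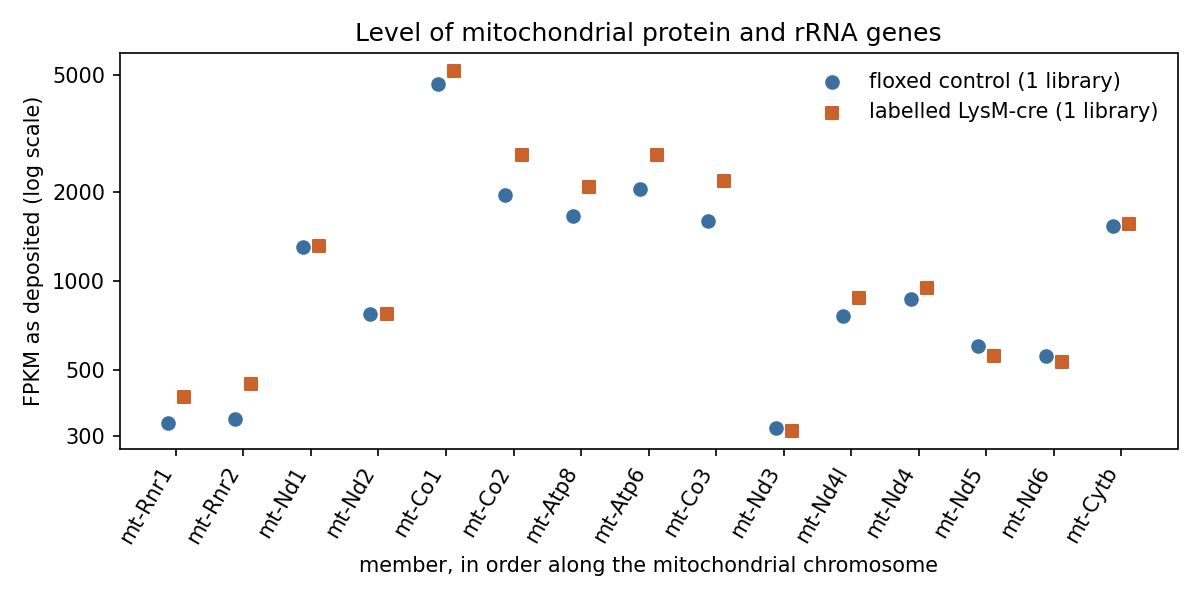
Deposited FPKM (log scale) of the 13 protein and 2 rRNA genes in order along the mitochondrial chromosome, with 1 point per library (circles, floxed control; squares, labelled LysM-cre). mt-Co1 is highest at 4630 and 5143 FPKM, mt-Nd3 is the lowest protein gene at 319 and 311, and the points of mt-Co2 to mt-Co3 stand further apart than those of mt-Nd1, mt-Nd2 and mt-Cytb.

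The genes for complex IV, cytochrome c oxidase, which passes electrons to oxygen, include mt-Co1, the most abundant member in both libraries. mt-Co1 (MT, 5328 to 6872), the catalytic subunit, stood at 4630 FPKM in the floxed control against 5143 in the LysM-cre-labelled library, on 477910 and 529600 counts. It alone held 37.4% and 36.7% of the mitochondrial counts. Its CPM ratio was 1.11 (95% interval 1.106 to 1.115), and 1.03 (1.028 to 1.035) with its copy rows added. mt-Co2 (7013 to 7696), which takes up electrons from cytochrome c, stood at 1963 and 2669 FPKM, on 89686 and 121691 counts. The ratio of mt-Co2 was 1.36 (1.35 to 1.37) as deposited and 1.04 (1.03 to 1.05) with its copies. mt-Co3 (8607 to 9390), a structural subunit, stood at 1592 and 2188 FPKM, on 83395 and 114354 counts. It had the highest ratio of the protein genes as deposited, 1.37 (1.36 to 1.39), and 1.08 (1.07 to 1.08) with its copy. Each complex IV gene was thus higher in the LysM-cre-labelled library on both counts, by much less once the copies were added.

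Both ATP synthase genes were higher in the LysM-cre-labelled library as deposited. mt-Atp6 (MT, 7927 to 8607), a subunit of the proton channel, stood at 2052 and 2676 FPKM, on 93373 and 121491 counts. Its CPM ratio was 1.304 (95% interval 1.29 to 1.31) as deposited, and 0.989 (0.982 to 0.995) with its copy Gm10925, which turned the direction. mt-Atp8, a short membrane subunit of the same complex, stood at 1663 and 2078 FPKM, on 22661 and 28251 counts. The ratio of mt-Atp8 was 1.25 (1.23 to 1.27), and no copy row with counts was found for it. By the same sum of positions its counterpart on chromosome 1 would lie at 24614609 to 24614812, of which 161 bases fall between the rows of Gm10925 and Gm28661 and in neither. Counts placed there would appear in no copy row, so the mt-Atp8 ratio could not be recomputed in the same way.

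Complex I genes, whose products take electrons from NADH, had as-deposited ratios from 0.931 to 1.15. mt-Nd1 (MT, 2751 to 3707) stood at 1309 FPKM in the floxed control against 1314 in the LysM-cre-labelled library, on 83716 and 83844 counts, a CPM ratio of 1.00 (95% interval 0.994 to 1.01). mt-Nd2 (3914 to 4951) stood at 772 FPKM in each library, on 53546 and 53426 counts. These genes lie outside the stretch copied on chromosome 1. mt-Nd5 (11742 to 13565), a proton-pumping subunit, stood at 601 and 560 FPKM, on 73280 and 68094 counts, and had the lowest ratio of the protein genes, 0.931 (0.921 to 0.941). mt-Nd6 (13552 to 14070), the only protein gene on the minus strand, stood at 558 and 534 FPKM with a ratio of 0.955 (0.936 to 0.975). These were the 2 of 13 protein genes whose interval lay below 1, against 29.7% of genes kept.

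The remaining complex I genes have chromosome 1 copies. mt-Nd4 (MT, 10167 to 11544), another proton-pumping subunit, stood at 870 and 951 FPKM on 80085 and 87342 counts. Its CPM ratio moved from 1.09 (95% interval 1.08 to 1.103) to 0.965 (0.956 to 0.973) with its copy Gm28439, the other gene whose direction turned. mt-Nd4l (9877 to 10173) stood at 764 and 876 FPKM on 15155 and 17344 counts, with a ratio of 1.15 as deposited and 1.02 with its copy Gm10222. mt-Nd3 (9459 to 9806) stood at 319 and 311 FPKM on 7417 and 7216 counts, with a ratio of 0.975 as deposited and 0.967 with its copy Gm28438. The single mitochondrial gene of complex III, mt-Cytb (14145 to 15288), which encodes cytochrome b, stood at 1537 and 1557 FPKM on 117469 and 118747 counts, a ratio of 1.01 (1.005 to 1.02).

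**Figure D2:**
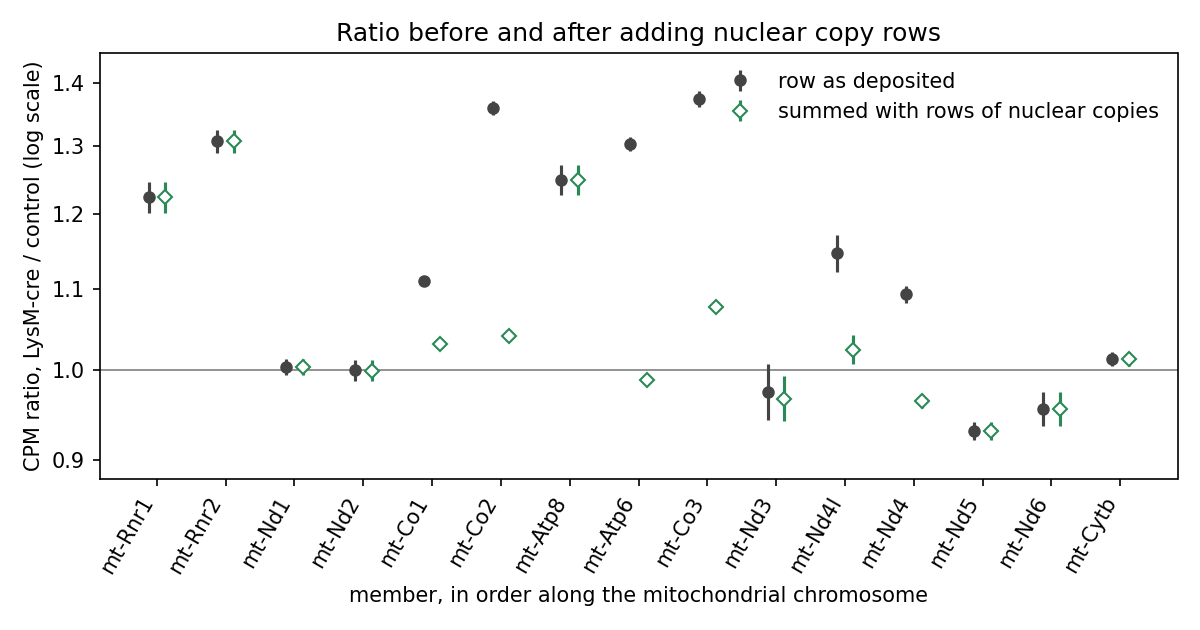
CPM ratio of the LysM-cre-labelled library over the floxed control (log scale), for each row as deposited (filled circles) and summed with its nuclear copy rows (open diamonds), with exact 95% counting intervals. As deposited, mt-Co2, mt-Atp8, mt-Atp6 and mt-Co3 lie between 1.25 and 1.37. With copies added, only mt-Atp8 among the protein genes lies above 1.2, and the others lie between 0.931 and 1.08. For mt-Atp8 there was no copy row with counts to add, so its ratio is unchanged.

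The 7 chromosome 1 rows themselves were lower in the LysM-cre-labelled library. Their mitochondrial partners went the opposite way in 6 of 7 pairs, and mt-Nd3 (0.975) was below 1 together with its copy (0.952). Together they held 396486 counts in the floxed control against 273580 in the LysM-cre-labelled library, or 0.666% and 0.461% of the library, a CPM ratio of 0.691 (95% interval 0.688 to 0.695). Their 7 partner members had a joint ratio of 1.18 (1.178 to 1.185), and members plus copies had 1.03 (1.023 to 1.028). The 6 protein genes without such a row had a joint ratio of 1.00 (0.999 to 1.01). These include mt-Atp8 (1.25), whose counterpart would lie inside the copied stretch by the sum of positions. The others had ratios from 0.931 (mt-Nd5) to 1.01 (mt-Cytb). Gm29216, the partial copy of mt-Co1, stood at 84349 and 49198 counts, the lowest ratio of the 7 at 0.584. Gm10925, the copy of mt-Atp6, stood at 97650 and 66984, and Gm28661, the copy of mt-Co2, at 88731 and 63636. Gm28439, the copy of mt-Nd4, stood at 31743 and 20315, and Gm28437, the copy of mt-Co3, at 79309 and 60547. Gm10222 (10892 and 9277 counts) and Gm28438 (3812 and 3623) were nearest to level.

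The share of each pair that was counted on chromosome 1 differed between the libraries. For mt-Co2 and Gm28661, whose aligned bases are identical, it was 49.7% in the floxed control against 34.3% in the LysM-cre-labelled library. For mt-Atp6 it was 51.1% and 35.5%, for mt-Co3 48.7% and 34.6%, and for mt-Nd4l 41.8% and 34.8%. In these 4 pairs the share was higher in the control. For mt-Nd3 it was 33.9% and 33.4%, with overlapping intervals (33.1% to 34.8% and 32.5% to 34.3%). Where the copy covers only a part of the member, shares were smaller, at 15.0% and 8.50% for mt-Co1 and 28.4% and 18.9% for mt-Nd4. Since identical letters cannot place a fragment, how many of these counts came from either chromosome cannot be told apart from the table.

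**Figure D3:**
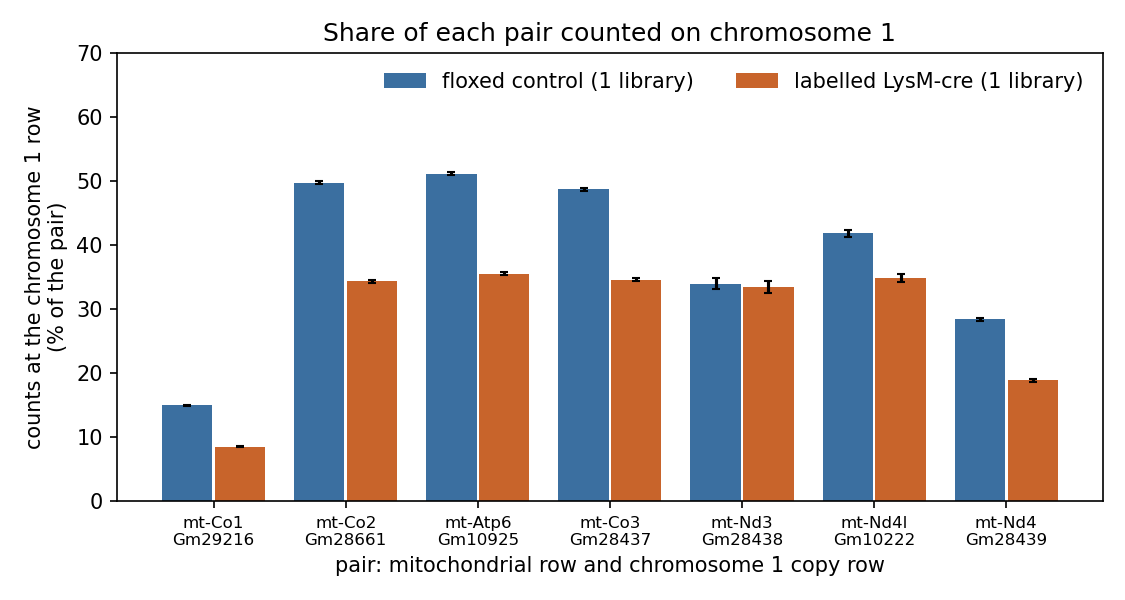
Percentage of the counts of each pair (mitochondrial row plus chromosome 1 copy row) that stands at the chromosome 1 row, with exact 95% counting intervals, in the floxed control and in the LysM-cre-labelled library. The control bars are higher in 6 of the 7 pairs with intervals apart, and the bars of mt-Nd3 stand at 33.9% and 33.4%.

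Copies elsewhere in the nuclear genome held few counts. Gm13340 on chromosome 2, a full-length copy of mt-Co1 with 97.6% identity, held 756 and 842 counts, and its neighbour Gm13341, a copy of mt-Co2 with 95.9% identity, held 263 and 341. Gm13339, a partial copy of mt-Nd2, held 97 and 74. Copies of mt-Nd5 and mt-Nd6 on chromosomes 4 and 13 held 11 counts or fewer in each library. No nuclear row with counts was found for mt-Nd1, mt-Cytb or the rRNA genes. Of 29 nuclear rows that matched a member over at least 100 bases at 80% identity or more, 16 held no count in either library.

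The order of the protein genes per length was the same in both libraries once copies were added. On the scale of summed CPM per kilobase, mt-Co1 was first (6124 in the floxed control against 6317 in the LysM-cre-labelled library), followed by mt-Atp6 (4714 and 4660), mt-Co2 (4390 and 4570) and mt-Co3 (3488 and 3756). mt-Atp8 (1867 and 2332) and mt-Cytb (1726 and 1748) came next. For mt-Atp8 there was no copy row with counts to add although its counterpart would lie in the copied stretch, so its place is that of its row alone. mt-Nd4l (1474 and 1509) and mt-Nd1 (1470 and 1475) were nearly equal in the control. The lowest were mt-Nd2 (868 in each), mt-Nd5 (675 and 629), mt-Nd6 (627 and 599) and mt-Nd3 (542 and 524). In deposited FPKM, without copies, mt-Nd4l ranked 10 in the floxed control against 9 in the other library in place of 7, and mt-Atp8 ranked 4 in the control in place of 5. Complex IV genes and mt-Atp6 thus stood above every complex I gene on either scale, with a range of 11.3-fold in the control between mt-Co1 and mt-Nd3 in summed CPM per kilobase.

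Both mitochondrial rRNA genes had more counts in the LysM-cre-labelled library. mt-Rnr1 (MT, 70 to 1024), the RNA of the small ribosomal subunit, stood at 21141 counts in the floxed control against 25839 in the LysM-cre-labelled library, a CPM ratio of 1.22 (95% interval 1.202 to 1.247). mt-Rnr2 (1094 to 2675), the RNA of the large subunit, stood at 36142 and 47158 counts, a ratio of 1.31 (1.29 to 1.33). Their values were 331 and 406 FPKM for mt-Rnr1 and 342 and 447 FPKM for mt-Rnr2, above only mt-Nd3 among the protein genes. Since RNA was selected on oligo(dT) beads, these values describe captured RNA. They do not rank the amounts of rRNA and messenger RNA in the cells. Values of some other non-messenger RNAs stand beside these. The nuclear rRNA row CT010467 (chromosome 17, 39846353 to 39848201, plus strand) held 1.68% of counts in the floxed control against 2.58% in the LysM-cre-labelled library, a CPM ratio of 1.54 (1.53 to 1.54). Rn7sk, a small nuclear RNA that holds back transcription elongation, stood at 543 and 1136 counts, and Rn7s1, an RNA of the signal recognition particle, at 1287 and 2904. Rpph1, the RNA of nuclear ribonuclease P, stood at 172 and 378, and Rmrp, a related RNA, at 60 and 77 (ratio 1.29, 0.906 to 1.83). These rows were chosen after their values were seen, and their part in the mitochondrial rRNA values was not tested.

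The tRNA rows held few counts and showed no common direction. In all, 22 rows held 1935 counts in the floxed control against 1844 in the LysM-cre-labelled library, a CPM ratio of 0.955 (95% interval 0.895 to 1.02). Of 16 rows with a mean of 10 counts or more, 9 had a ratio above 1 and 7 below, against 50.2% and 49.8% of all genes kept. The interval lay across 1 for 15 of these 16 rows, and differences in those 15 were not detectable at this depth. Past 1.2-fold in CPM, 8 of 19 tRNA rows kept were higher and 6 lower, against 14.2% and 13.1% of all genes kept, but these include rows of a few counts such as mt-Th (8 and 2). The rows are 59 to 75 bases long, shorter than the average insert of 300 bases. A fragment of that length reaches past the row, so these counts cannot be read as amounts of the finished tRNAs. The rows of the tRNAs for leucine (UUR codons) and glutamate held most counts. They are shown with the shortest row, the serine tRNA mt-Ts2, which lacks the usual dihydrouridine arm.
mt-Tl1: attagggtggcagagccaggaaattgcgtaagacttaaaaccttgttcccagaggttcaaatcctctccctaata
mt-Te: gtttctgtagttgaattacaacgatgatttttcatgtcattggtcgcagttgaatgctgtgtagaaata
mt-Ts2: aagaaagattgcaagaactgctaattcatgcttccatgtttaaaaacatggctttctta
mt-Tl1 (MT, 2676 to 2750, plus strand), which lies between mt-Rnr2 and mt-Nd1, stood at 581 and 555 counts, a ratio of 0.957 (0.850 to 1.08). mt-Te (14071 to 14139, minus strand), next to mt-Nd6, stood at 526 and 398 counts, a ratio of 0.758 (0.664 to 0.865). It was the only tRNA row with an interval that excluded 1. mt-Ts2 (11613 to 11671) held 1 count in each library.

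**Figure D4:**
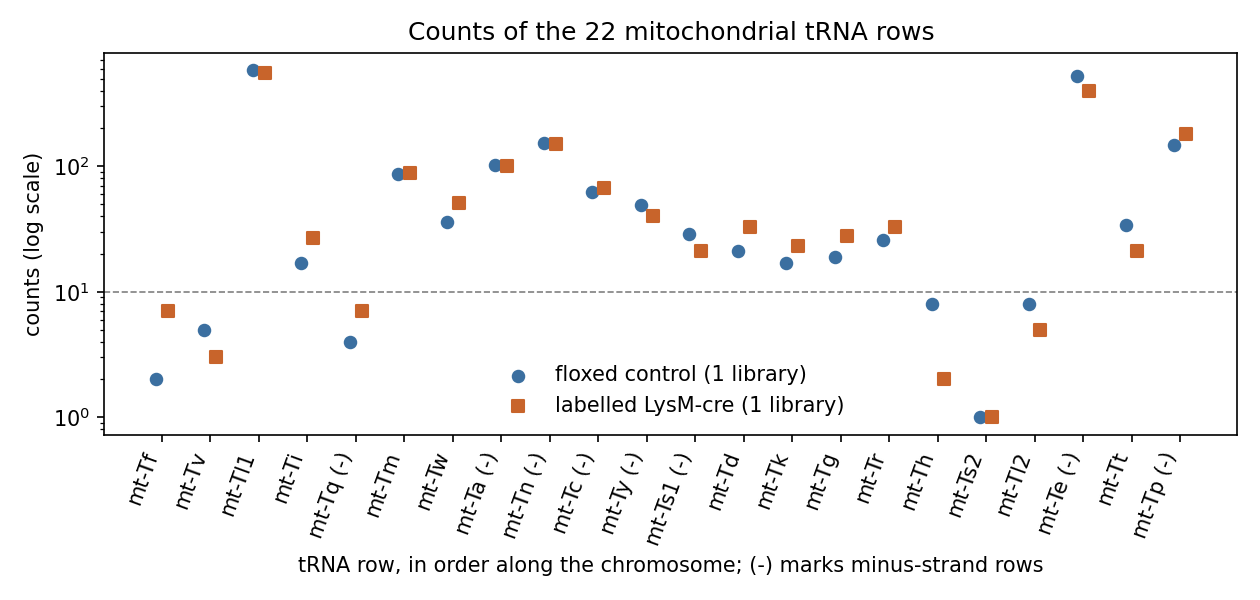
Counts (log scale) of the 22 mitochondrial tRNA rows in order along the chromosome, with 1 point per library; the dashed line marks 10 counts. mt-Tl1 and mt-Te stand highest, mt-Te is at 526 in the floxed control against 398 in the LysM-cre-labelled library, and 6 rows have a mean below 10 counts.

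The other 5 tRNA rows with a mean of 50 counts or more had intervals across 1. mt-Tp, the proline tRNA, stood at 149 and 182 counts, a CPM ratio of 1.22 (95% interval 0.980 to 1.53). mt-Tn (152 and 151 counts), mt-Ta (103 and 100) and mt-Tc (62 and 67) belong to the cluster around the origin of light-strand replication, and mt-Tm, the methionine tRNA beside mt-Nd2, stood at 86 and 89. By strand, the 8 minus-strand tRNA rows held 1074 and 966 counts together, a ratio of 0.901 (0.825 to 0.984), of which mt-Te accounts for 526 and 398. The 14 plus-strand rows held 861 and 878, a ratio of 1.02 (0.929 to 1.12). Along the stretch that is copied on chromosome 1, the 5 tRNA rows between mt-Co1 and mt-Nd4 (mt-Ts1, mt-Td, mt-Tk, mt-Tg and mt-Tr) held 112 and 138 counts together. Of these 5, 4 had a ratio above 1 and every interval lay across 1. The search for copies needed at least 100 aligned bases, so it could not find copies of tRNAs.

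Nuclear genes for the same complexes had ratios above 1 more often than below. Of 78 nuclear subunits of complexes I to V, all kept, 58 had a CPM ratio above 1 and 20 below, against 50.2% and 49.8% of genes kept. Their median log2 CPM ratio was 0.08, and their pooled counts gave a ratio of 1.04 (95% interval 1.036 to 1.047). At 1.2-fold, 8 of 78 were higher and 2 lower, smaller shares than the 14.2% and 13.1% of all genes kept, and 0 passed 2-fold in FPKM + 1. As deposited, mitochondrial complex IV genes had a median of 0.44 and nuclear complex IV genes 0.09, while with copies added the mitochondrial median was 0.06. For complex I the medians were -0.00049 (mitochondrial, as deposited), -0.05 (with copies) and 0.07 (nuclear). The nuclear genes of complex I had 25 of 36 ratios above 1, and the mitochondrial ones with copies 2 of 7.

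**Figure D5:**
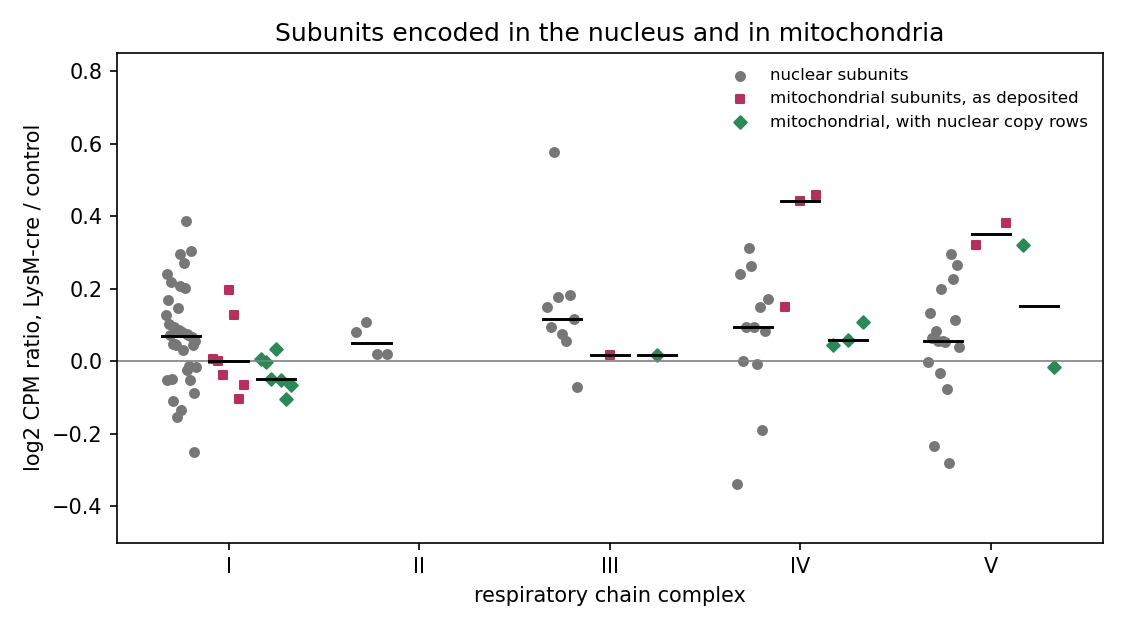
The log2 CPM ratio (library labelled LysM-cre over floxed control) of each subunit gene by respiratory chain complex, for nuclear subunits (circles), mitochondrial subunits as deposited (squares) and with nuclear copy rows added (diamonds); black lines are medians. For complex IV the mitochondrial median is 0.44 as deposited and 0.06 with copies, next to 0.09 for the nuclear genes; complex II has no mitochondrial subunit.

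Single nuclear subunits differed by more than their complex as a whole. Uqcr11, a small subunit of complex III, stood at 22.6 FPKM in the floxed control against 33.8 in the LysM-cre-labelled library (CPM ratio 1.49, 95% interval 1.37 to 1.62). Cox4i1, a regulatory subunit of complex IV, went the other way at 100.5 and 79.6 FPKM (0.791, 0.769 to 0.815). Cox6b1, which joins the monomers of the enzyme, stood at 95.5 and 118.7 FPKM (1.24, 1.19 to 1.29). Among accessory complex I genes, Ndufs5 stood at 13.9 and 17.1 FPKM. Atp5d, the delta subunit of the ATP synthase, stood at 44.8 and 38.1 FPKM. The succinate dehydrogenase genes of complex II, which contains no mitochondrially encoded subunit, lay near level, with Sdha at 44.9 and 47.5 FPKM.

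Nuclear genes that copy and transcribe the mitochondrial chromosome had no common direction. Of 15 kept from 16 listed, 8 had a ratio above 1 and 7 below, against 50.2% and 49.8% of all genes kept. Past 1.2-fold, 3 were higher and 1 lower, against 14.2% and 13.1% of all genes kept. Mterf4, which guides a ribosomal RNA methyltransferase in mitochondria, had the largest difference at 524 counts in the floxed control against 1029 in the LysM-cre-labelled library (CPM ratio 1.97, 95% interval 1.77 to 2.19). Top1mt, the mitochondrial topoisomerase, stood at 264 and 365 counts. Mterf1a, a termination factor with the near-identical neighbour Mterf1b, stood at 429 and 324 and Mterf1b at 122 and 153, so both values are uncertain.

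Genes that process, stabilise and modify mitochondrial RNA were mixed. Of 18 processing and stability genes kept, 9 had a ratio above 1 and 9 below, against 50.2% and 49.8% of all genes kept. Slirp, which with its partner Lrpprc protects mitochondrial messenger RNAs, stood at 5.65 FPKM in the floxed control against 7.90 in the LysM-cre-labelled library. Trmt10c, a subunit of mitochondrial ribonuclease P, stood at 3.89 and 5.07 FPKM. Fastk, whose mitochondrial form is needed for mt-Nd6 RNA, stood at 8.78 and 5.14 FPKM, and its CPM ratio was 0.588 (95% interval 0.551 to 0.626). Of 17 modification genes kept from 20 listed, 10 had a ratio above 1, with 5 past 1.2-fold higher and 0 lower, against 14.2% and 13.1% of all genes kept. Mrm3, a methyltransferase of mitochondrial large-subunit rRNA, stood at 1.34 and 2.08 FPKM, and Nsun4, a methyltransferase of small-subunit rRNA and partner of Mterf4, at 1.902 and 2.37.

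Mitochondrial ribosomal protein genes had ratios above 1 more often than below, while other translation and assembly genes were spread in both directions. Of all genes kept, 50.2% had a CPM ratio above 1 and 49.8% below. Of 78 mitochondrial ribosomal protein genes, 52 had a CPM ratio above 1, with a median log2 ratio of 0.07, close to that of the nuclear respiratory chain genes. Of 12 translation factors kept, 4 had a ratio above 1 and 8 below, and the elongation factor gene Tsfm stood at 3.06 and 2.23 FPKM. Of 20 genes that charge mitochondrial tRNAs, 11 had a ratio above 1. Lars2, which charges the leucine tRNAs, had the largest difference of that list at 655 and 1383 counts (CPM ratio 2.12, 95% interval 1.93 to 2.33), and Yars2, for tyrosine, stood at 285 and 506. Of 32 assembly genes kept, 13 had a ratio above 1 and 19 below. Tmem70, which helps build the ATP synthase, stood at 970 and 481 counts (0.497, 0.444 to 0.555), and Sco2, which delivers copper to the mt-Co2 protein, at 131 and 206. Of 14 genes for biogenesis, dynamics and mitophagy, 8 had a ratio above 1, and Ppargc1b, a coactivator of mitochondrial biogenesis, stood at 388 and 277 counts.

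Markers of other cells differed between the libraries beside these values, where 50.2% of all genes kept had a CPM ratio above 1 and 49.8% below. The 8 MDSC and neutrophil markers summed to 9372 FPKM in the floxed control against 8411 in the LysM-cre-labelled library, with 6 of 8 lower. The 4 monocyte markers summed to 660 and 677 FPKM, and the 5 macrophage markers to 977 and 1088, with 5 of 5 higher. The 7 B and plasma cell markers summed to 3272 and 2068 FPKM, with 6 of 7 lower. Most of that sum was Ighm (2848 and 1360 FPKM), while Jchain, the 1 marker that was higher, stood at 255 and 555 FPKM. The sum therefore gives no common direction for these cells. All 5 erythroid markers were higher, at 983 and 1377 FPKM in sum. The 4 T and NK cell markers kept of 5 (Cd3e, Cd3d, Cd4 and Cd8a) summed to 97.4 and 95.0 FPKM. Ncr1, the NK cell marker of that list, was below the minimum, at 102 counts in the floxed control against 57 in the other library. Its CPM ratio was 0.560 (95% interval 0.398 to 0.782). Of 5 epithelial markers that MC38 cells could carry, Cdh1 (543 and 528 counts) and Krt18 (81 and 138) were kept. They summed to 2.61 and 3.16 FPKM, and their pooled CPM ratio was 1.07 (95% interval 0.957 to 1.19). Below the minimum, Epcam held 153 and 115 counts, Krt8 held 27 and 17, and Krt19 had 0 counts in both libraries. Of 4 fibroblast and endothelial markers only Pecam1 was kept, at 16.2 and 17.3 FPKM. Below the minimum, Cdh5 held 256 counts in the floxed control against 202 in the other library, Col1a1 53 against 82 and Pdgfra 0 against 13. Cells differ in how many mitochondria they hold, and the part of the cell mix in the mitochondrial values was not tested.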

How the data were processed

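RNA sequencing of 2 libraries was used, 1 per genotype, grouped by the genotype label. The submitters' processing notes name build mm10 and the tools HISAT2 2.0.4, cutadapt 1.9, DESeq2, edgeR and StringTie 1.3.4d, without their roles. The deposited count values are whole numbers per gene row, not normalized, and FPKM, as deposited by the authors, is scaled for length and depth (0.0001, at a count of 0, was read as 0). The sources used here do not state the strand setting or how reads with several placements were counted. The 8 columns of libraries without labels were not used.

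CPM used the total of all rows (59506878 and 59393864 counts). Ratios have exact Clopper-Pearson 95% intervals, which treat each count as independent although PCR copies are not. The 12526 genes kept had a mean FPKM of at least 1, and folds use FPKM + 1 or CPM. FPKM of protein and rRNA members followed counts over row length with a common factor of 1.12. In the control, tRNA rows with a mean of 50 counts or more stayed near it (1.124 to 1.129). Rows with a mean below 10 counts departed from it (1.22 or more), so tRNAs are given in counts. The factor of mt-Ts2 was 64.1 in the control. Nuclear copies were found with BLAST 2.17.0 among GENCODE M21 transcripts (at least 100 bases, 80% identity). The ratio script was tested on simulated data. TMM factors came from edgeR 4.0.16, median-ratio size factors from DESeq2 1.42.0 (R 4.3.3). Scripts ran in Python 3.11.15 with scipy 1.17.1 and pandas 2.3.3. The members and gene lists were chosen with earlier results of these data known. The genes named are all protein and rRNA members, tRNA rows with a mean of 50 counts or more, copy rows with a mean of 10 or more, and up to 4 genes per nuclear list with the largest absolute log2 CPM ratio. The tRNA rows below 50 counts that appear by name (mt-Th among them), Ncr1, Krt19, Pdgfra, Lyz2, Rn7sk, Rn7s1, Rpph1, Rmrp and CT010467 were named after their values were seen.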

Additional observations from a re-analysis of the deposited data

How the results depend on the processing

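With 1 library per genotype no replicate could be left out. No paired analysis was possible because each genotype had 1 library. The ratio of mitochondrial shares was 1.13 as reported, 1.13 without immunoglobulin rows in the total (1.129), 1.14 with protein-coding rows only, and 1.03 with nuclear copy rows added. Adding copies to the share was planned, while the sums per gene were chosen after seeing the data. Without the nuclear rRNA row CT010467 in the total, an alternative also chosen after seeing the data, the ratio of shares was 1.14. Pooled counts of the 13 protein genes gave a log2 CPM ratio of 0.17. The median log2 CPM ratio of the 13 was 0.13 as reported, 0.11 after rescaling to TPM and 0.0049 with nuclear copies added. TMM, median-ratio size factors, FPKM ratios, totals without mitochondrial, immunoglobulin or nuclear rRNA rows, and sums over overlapping rows kept it between 0.12 and 0.14. At 1.2-fold in place of 2-fold, 4 protein genes were higher in place of 0, and 1 in CPM with copies added. That 1 was mt-Atp8, for which there was no copy row with counts to add. As a share of mitochondrial counts every ratio is divided by the same 1.13, which by construction puts mt-Co1 (0.979), mt-Nd4 (0.963) and mt-Cytb (0.893) below 1 and says nothing more about them. With copies added, mt-Atp6 (0.989) and mt-Nd4 (0.965) turned, because the copy rows differed the other way. The median log2 CPM ratio of nuclear respiratory chain genes was 0.08 as reported, with TMM and at a minimum mean FPKM of 10. Their pooled counts gave 0.06. Depth limits the tRNA rows, where 15 of 16 intervals span 1.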
